A study of Mus musculus and Homo sapiens with 10 samples.

Results

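Recurrent single-base break positions are single bases of the mouse genome at which DNA break ends were counted again and again in separate sequencing libraries of intestinal enterocytes. They were chosen from the counts themselves: a base on chromosomes 1 to 19 had to carry at least 5 and at most 100 break ends in each of the 2 Cd73 negative libraries, M1 and M2. Bases inside 3 loci, of 7001 bp on chromosome 17, 6001 bp on chromosome 2 and 100000 bp on chromosome 9, were left out, and coordinates are those of GRCm38. The rule gave 28624 positions, which is 1.58% of the 1810920 positions listed in both Cd73 negative libraries and 0.104% of the 27399919 positions listed in at least 1 of the 6 enterocyte libraries.

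The method, in-suspension BLISS, blunts the ends of double-strand breaks in lysed cells and nuclei, ligates an adapter to them and copies the tagged ends by in vitro transcription before sequencing. The cells were enterocytes from mouse jejunum, sorted by the surface enzyme Cd73 (gene Nt5e) into a Cd73 high, a Cd73 mid and a Cd73 negative fraction, with 2 libraries of each, called M1 and M2. No genotype, strain, age or treatment of the mice is in the labels, and they do not say whether M1 and M2 are different animals, so a p-value given here measures only the spread between 2 libraries, which may be technical. The series also holds 4 libraries of human TK6 cells, which were not used here. Values of a fraction are given for M1 and then for M2.

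Enterocytes are the absorptive cells of the villus. They are born in the crypt and move up the villus until they are shed at its tip, and Cd73 is known to be higher in cells nearer the tip. A double-strand break can arise when a topoisomerase fails to reseal DNA, when replication forks collapse or when a nuclease cuts, and breaks have often been mapped to promoters of active genes.

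Nuclear depth was 1522615 and 1272771 break ends in Cd73 high, 4757961 and 5160171 in Cd73 mid, and 13043514 and 12585228 in Cd73 negative libraries. The deposited counts carry no statement of whether they are of unique molecular identifiers or of reads. The Wilson intervals below treat positions as independent draws, although 23.2% of recurrent positions have another within 100 bp. They do not cover the spread between libraries or animals. Levels are given as EPM, break ends per 1000000 nuclear break ends of the library. The Cd73 high and mid libraries had no part in the choice of positions, and comparisons are made between these. Breaks are not RNA, and so the label of enterocyte could not be checked against expressed markers. How uniquely the reads map at these positions was not tested, since no genome sequence was used here beyond promoter windows.

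The 8 sequences that follow show the local letters of recurrent positions next to gene starts, because a base composition that the rule did not use recurred there. They are the positions with the highest mean EPM over the Cd73 high and mid libraries among the 3294 whose whole window lies before a start site in a RefSeq promoter window (GRCm38.p6), a choice made after values were seen. Each is printed 5′ to 3′ on the plus strand and is named by the gene of its window. The 8 capitals are the 4 bases on either side of the boundary just before the listed base, so that the listed base is the fifth capital.

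Cfap61, chr2:145934645-145934674: ggacttgagaaAAGCACTTcgaaccggccg

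Wars2, chr3:99140982-99141011: catcggtactgAGCTACTTtggccagcggc

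Sh3bgrl3, chr4:134128740-134128769: gccgcgcttggGAGCGGTTtccttcctgct

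Nup37, chr10:88146916-88146945: gcagaggtttgAATCGCCTcggcgtccctt

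Tmem127, chr2:127247716-127247745: tctgcaaaataTGTCGCCCtaggaattgac

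Eif4g3, chr4:137993323-137993352: acagcggccgaAGGCGCTCccgagcgctcc

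Zcrb1, chr15:93398341-93398370: gcgcgcgccggAAGTGCCTttagggcgagc

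Sbno2, chr10:80102772-80102801: cttgctacttgAGGGAGCTggaccccttct

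Of these 8, the windows of Cfap61, Eif4g3 and Zcrb1 carried 3 purines and a pyrimidine before the boundary and a purine and 3 pyrimidines after it, called the full pattern below. The full pattern reads the same on both strands. The position at Cfap61, a gene of cilia and flagella, had 5 and 10 break ends in Cd73 high, against 23 and 18 in Cd73 mid and 50 and 71 in Cd73 negative libraries. At Nup37, a subunit of the nuclear pore, the counts were 4 and 4 in Cd73 high, 27 and 28 in Cd73 mid and 91 and 85 in Cd73 negative libraries. At Eif4g3, a scaffold of translation initiation, they were 10 and 3 in Cd73 high, 10 and 20 in Cd73 mid and 45 and 44 in Cd73 negative libraries. At these 3 bases each fraction's summed count was lowest in Cd73 high, the shallowest fraction, and highest in Cd73 negative, the deepest, while M1 and M2 of a fraction did not always follow their depth.

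The position at Wars2, a mitochondrial tryptophan tRNA ligase, had 7 and 5 break ends in Cd73 high, against 26 and 26 in Cd73 mid and 85 and 59 in Cd73 negative libraries. At Sh3bgrl3 there were 7 and 7 in Cd73 high, 18 and 20 in Cd73 mid and 29 and 36 in Cd73 negative libraries. At Tmem127, the gene of a membrane protein, there were 8 and 1 in Cd73 high, 15 and 32 in Cd73 mid and 40 and 53 in Cd73 negative libraries. The Cd73 high and the Cd73 mid pair at Tmem127 differed between M1 and M2 more than those at Wars2, and the Cd73 negative pair did so less. Zcrb1, a component of the minor spliceosome, had 1 and 8 in Cd73 high, 13 and 25 in Cd73 mid and 73 and 66 in Cd73 negative libraries. Sbno2, a transcriptional coregulator, had 7 and 3 in Cd73 high, 17 and 19 in Cd73 mid and 53 and 57 in Cd73 negative libraries.

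Sequence could be read in 31396 promoter windows, each from 250 bases before to 50 after a RefSeq start. They held 4779 recurrent positions (16.7%), against 2.88% of all positions listed in both Cd73 negative libraries. Of these, 4426 had 12 bases of window on both sides, and composition was counted over them on the plus strand, with no test, since counts from the same cells chose them. Purines made up 93.6% of the bases 3 before the listed base and 81.7% of the listed bases, against 17.6% of the bases just before the listed base and 6.53% of the bases 2 after it. Over every base of the windows the purine share was 49.9%.

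At the listed base, G made up 53.5%, A 28.2% and T 0.678%. At the base before it, C made up 53.5%, T 28.9% and A 0.474%. The 2 sides of that boundary were mirror images in complement: over the 6 bases on either side, no base share differed from its complement's share at the mirrored place by more than 1.58 percentage points. About the listed base itself, the largest such difference was 38.1 percentage points. The counts carry no strand, and both orientations were pooled on the plus strand. Such pooling gives a mirror even where each site has letters on 1 side only. What the values show is that the centre of the mirror lay between 2 bases and not at a base. They do not show that single sites were symmetric.

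**Figure D1:**
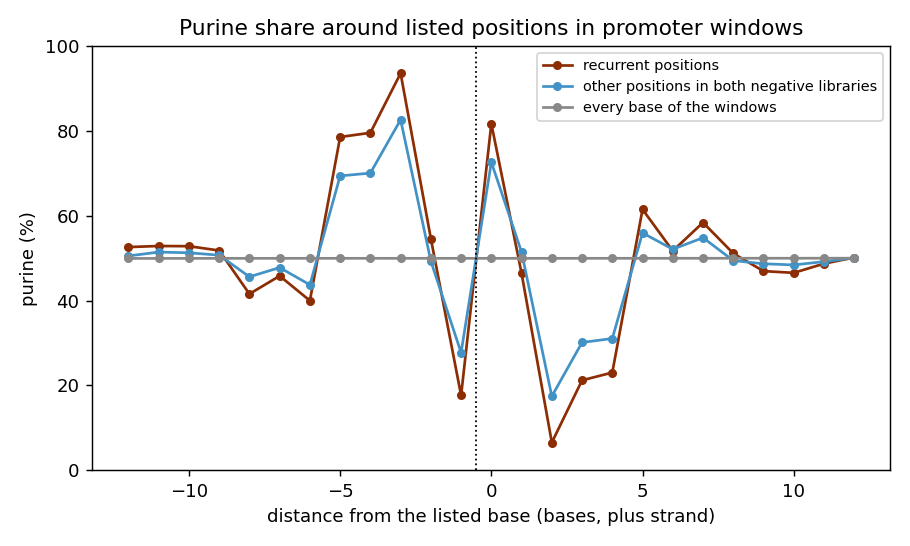
Share of purines (A or G, in %) at each distance from the listed base (in bases, plus strand) inside RefSeq promoter windows. Points are 4426 recurrent positions, 44048 other positions listed in both Cd73 negative libraries and 7983868 bases of the windows, and the dotted line is the boundary before the listed base. Recurrent positions reach 93.6% 3 bases before and 6.53% 2 bases after the listed base, and the other listed positions follow the same course with smaller swings.

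An A before the boundary or a T after it was nearly missing. Neither was present at 98.9% of recurrent positions, at 94.0% of the 44048 other positions listed in both Cd73 negative libraries and at 58.1% of every base of the windows. The full pattern was found at 490 of 4426 recurrent positions (11.1%, 95% Wilson interval 10.2% to 12%). It was found at 4.56% of the other positions listed in both Cd73 negative libraries and at 0.381% of every base. The 4 letters before the boundary or the 4 after it were met by 58.3% of recurrent positions, 39.4% of the other listed positions and 13% of every base. Taken singly, the 4 letters before the boundary were met by 35.2% and the 4 after it by 34.2% of recurrent positions. Over the other listed positions these shares were 22.0% and 21.9%, and over every base 6.66% and 6.68%. Whether the full pattern was more common than independent sides with such shares would give was not tested. Its share therefore does not show that a site prefers letters on both sides. The pattern was written down after the composition had been seen, so these shares are descriptions.

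The share with the full pattern differed by count as well. By the lower count, which is the smaller of the 2 Cd73 negative counts, it was 3.89% at a lower count of 1, 5.60% at 2, 6.78% at 3, 7.98% at 4, 7.57% at 5, 9.59% at 6 to 9, 14.8% at 10 to 19 and 19.7% at 20 to 100. The last class held 319 positions, with a Wilson interval of 15.8% to 24.5%. Apart from the classes of 4 and 5, each class had a larger share than the one below it.

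The libraries that had no part in the choice held the same letters. Of all break ends inside promoter windows, 4.52% and 5.32% lay at the full pattern in Cd73 high, 4.86% and 5.23% in Cd73 mid, and 5.59% and 5.70% in Cd73 negative libraries. At positions not listed in both Cd73 negative libraries, where no recurrent position can lie, 2.18% and 2.28% of positions carried it in Cd73 high, 2.23% and 2.21% in Cd73 mid and 1.90% and 2.04% in Cd73 negative libraries. Among bases listed in none of the 6 libraries the share was 0.303%, and among the 898 bases listed in all 6 it was 13.1%. By break ends the Cd73 high and mid libraries overlapped, and both Cd73 negative libraries were above them. Counted once per listed position, the order was the other way, with 4.05% and 4.59% in Cd73 high, 3.65% and 3.57% in Cd73 mid and 3.05% and 3.09% in Cd73 negative libraries. The fractions differ in depth in the same order, and the libraries were not thinned here. Neither order can be told apart from depth.

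The letters most often met in the 8 bases around the boundary were AGGCGCCT, which is its own reverse complement, at 29 recurrent positions. The windows hold AGGCGCCT at 171 bases, of which these are 17%. AGCCGCCT and its reverse complement AGGCGGCT were each at 28 recurrent positions, which is 14.3% and 17.2% of their places in the windows. AAGCGCCT was at 23 (20.9% of its places) and its reverse complement AGGCGCTT at 19 (22.4%). Most places with such letters, even the commonest, were thus not recurrent positions. As background, preferences for particular letters are described for topoisomerases and for several nucleases, among them the caspase-activated DNase of dying cells, whose preferred site is described in purines and pyrimidines as above. No enzyme and no cell death was measured here, and their part was not tested.

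Most recurrent positions were met again in the libraries that had not chosen them. At least 1 break end was counted in 10365 (36.2%) and 8872 (31.0%) of the 28624 positions in Cd73 high and in 20776 (72.6%) and 23564 (82.3%) in Cd73 mid libraries. Across these 4 libraries, 1362 positions (4.76%) had no break end in any, 5469 had one in 1 library, 10419 in 2, 8226 in 3 and 3148 (11%) in all 4. Both Cd73 high libraries listed 3918 positions (13.7%) and both Cd73 mid libraries 17825 (62.3%). The limit of 5 in both libraries of a fraction was met by 1347 (4.71%) in the Cd73 mid fraction.

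Per position, counts were small in the shallower libraries. The median was 0 in both Cd73 high libraries, with highest counts of 33 and 31. In Cd73 mid libraries the medians were 1 and 2, with highest counts of 45 and 70. In the Cd73 negative libraries that chose the positions the medians were 7 and 8, with ranges of 5 to 91 and 5 to 98. Just outside the limit, the 19517 positions with a lower count of 4 had mean counts of 0.257 and 0.218 in Cd73 high and 0.910 and 1.25 in Cd73 mid libraries. Just inside, the 9767 positions with a lower count of 5 had 0.343 and 0.271 in Cd73 high and 1.14 and 1.69 in Cd73 mid libraries.

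To take depth out, the share of positions with a break end was computed for each library thinned by calculation to 1237142 kept autosomal break ends, the number in Cd73 high M2. At this depth 31.9% and 31.0% of recurrent positions had a break end in Cd73 high, against 34.5% and 43.1% in Cd73 mid libraries. The difference of -7.39 percentage points was smaller than the gap between the 2 Cd73 mid libraries (exact two-sided permutation test, 2 against 2, p = 0.333, the smallest this design allows). Detection climbed with the lower count in all 4 libraries. For positions with a lower count of 1 it was 3.81% and 3.94% in Cd73 high and 4.41% and 4.95% in Cd73 mid libraries, and for a lower count of 20 to 100 it was 70.6% and 70.1% in Cd73 high and 76.0% and 85.1% in Cd73 mid libraries.

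**Figure D2:**
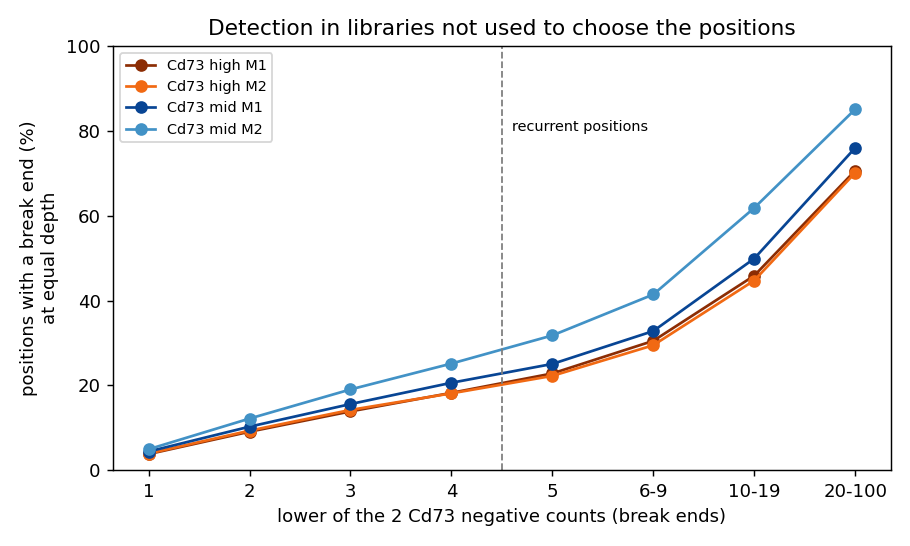
Positions with at least 1 break end (in %), computed for an equal depth of 1237142 break ends, against the lower of the 2 Cd73 negative counts of the position. Each line is a library not used for the choice, the dashed line marks the limit of 5, and recurrent positions lie to its right. Detection runs from under 5% at a lower count of 1 to between 70.1% and 85.1% at 20 to 100, with Cd73 mid M2 above the other 3 libraries in every class.

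Summed over all recurrent positions, the level was 10255 and 9680 EPM in Cd73 high, against 10965 and 15258 EPM in Cd73 mid libraries. Both Cd73 high libraries were below both Cd73 mid libraries, by a difference in means of -3144 EPM (exact two-sided permutation, p = 0.333). No smaller p is possible with so few libraries, so this test cannot decide whether the fractions differ. Cd73 mid M2 stood apart from Cd73 mid M1 here, and without it the difference was -997 EPM. The Cd73 negative libraries had 20125 and 22888 EPM, values that the choice itself raised. The size of that effect cannot be read for the recurrent positions, since no Cd73 negative library stood outside the choice. An effect of the same kind shows in larger sets, chosen by 1 Cd73 negative library alone. The 75322 positions of 5 to 100 break ends in Cd73 negative M1 held 15789 and 15289 EPM in Cd73 high and 17245 and 22642 EPM in Cd73 mid. They held 41281 EPM in M1 itself and 29559 EPM in Cd73 negative M2. The 84315 positions chosen in the same way on M2 held 17271 and 16919 EPM in Cd73 high, 18806 and 25849 EPM in Cd73 mid, 49962 EPM in M2 itself and 27989 EPM in Cd73 negative M1.

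The 2 lists that meet in the rule overlapped in part. Recurrent positions were 38.0% of the M1 list and 33.9% of the M2 list. Of the M1 list, 86.9% were listed at any count in M2, and of the M2 list 87.3% in M1. Over all kept positions these shares were 16.9% and 17.7%, so that a base of at least 5 break ends in 1 library was met in the other far more often than a listed base in general.

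Break ends were concentrated on the recurrent base itself and, at a far lower level, next to it. Per recurrent position, Cd73 high libraries had 0.358 and 0.338 EPM at the base itself, 0.0296 and 0.0316 EPM 1 base before it and 0.00587 and 0.00565 EPM 30 bases after it. Cd73 mid libraries had 0.383 and 0.533 EPM at the base, 0.0314 and 0.0400 EPM 1 base before and 0.00573 and 0.00751 EPM 30 bases after. A smaller second rise lay 10 bases away: 10 bases before the position, levels were 0.0127 and 0.0116 EPM in Cd73 high and 0.0111 and 0.0157 EPM in Cd73 mid libraries. At 7 bases after it they were 0.00555 and 0.00486 EPM in Cd73 high and 0.00348 and 0.00397 EPM in Cd73 mid libraries.

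Sharpness, the break ends at recurrent positions as a share of all break ends within 50 bp of them, was 49.1% and 49.8% in Cd73 high, against 51.6% and 53.2% in Cd73 mid libraries. The groups did not overlap, by a difference of -2.92 percentage points (exact two-sided permutation, p = 0.333, the smallest possible). A single base was also raised over its flanks where the rule was not met. At a lower count of 1 the base held 27.3 and 29.3 times the mean level of the bases within 50 bp in Cd73 high and 31.8 and 30.8 times in Cd73 mid libraries. At a lower count of 5 it held 47.3 and 47.9 times in Cd73 high and 54.6 and 55.8 times in Cd73 mid libraries.

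Recurrent positions lay at the borders of genes more often than other listed positions, although most lay elsewhere. A border is taken as within 1000 bp of either end of a protein-coding RefSeq gene, and a body as the rest of the gene. Of the 28624 positions, 13351 (46.6%, 95% Wilson interval 46.1% to 47.2%) lay at a border, 10230 (35.7%, 35.2% to 36.3%) in a body and 5043 (17.6%, 17.2% to 18.1%) in neither. The same shares over the 1810920 positions listed in both Cd73 negative libraries were 11.7%, 45.6% and 42.7%. These are descriptions of positions chosen by count. By the lower count, the border share was 9.76% at 1, 17.5% at 2, 25.5% at 3, 32.6% at 4, 38.4% at 5, 46.6% at 6 to 9, 58.7% at 10 to 19 and 68.6% at 20 to 100.

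**Figure D3:**
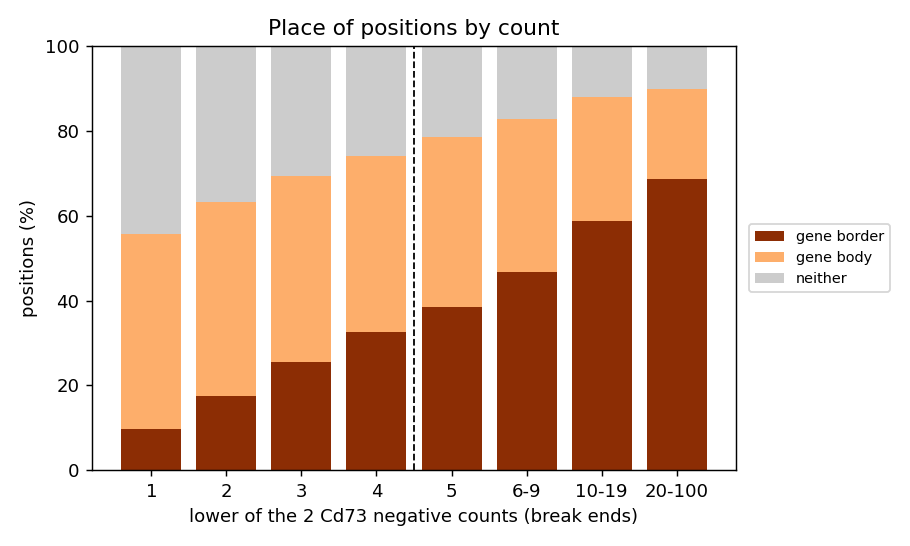
Share of positions (in %) at a gene border, in a gene body or in neither, by the lower of the 2 Cd73 negative counts, with the limit of 5 as a dashed line. The border share climbs from 9.76% at a lower count of 1 to 68.6% at 20 to 100, and the share in neither shrinks over the same classes.

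The places of recurrent positions are fixed by the choice, with 46.6% at borders. A border share of their break ends near this value in other libraries is thus no separate finding. Borders held 52.2% and 50.8% of the break ends at recurrent positions in Cd73 high, against 52.0% and 53.7% in Cd73 mid libraries (difference -1.32 percentage points, exact two-sided permutation, p = 0.667). The groups overlapped. Of all break ends, borders held 7.09% and 6.61% in Cd73 high, 7.0% and 8.72% in Cd73 mid, and 8.25% and 9.61% in Cd73 negative libraries. A recurrent position at a border had 0.401 and 0.369 EPM on average in Cd73 high and 0.427 and 0.613 EPM in Cd73 mid libraries. In a body it had 0.316 and 0.301 EPM in Cd73 high and 0.344 and 0.470 EPM in Cd73 mid libraries, and in neither 0.331 and 0.332 EPM in Cd73 high and 0.345 and 0.449 EPM in Cd73 mid libraries.

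Starts of genes accounted for most of the border positions. Strand was known for 16456 of 20661 protein-coding genes. Within 1000 bp of a start of these lay 10305 recurrent positions (36.0%), against 7.72% of the positions in both Cd73 negative libraries, and within 1000 bp of an end 1074 (3.75%), against 2.21%. The 1000 bp after the start held 22.9% of recurrent positions and the 1000 bp before it 13.1%. The fullest bin of 100 bp was the one just after the start, with 1666 positions (5.82%), followed by the one just before it, with 1303 (4.55%).

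**Figure D4:**
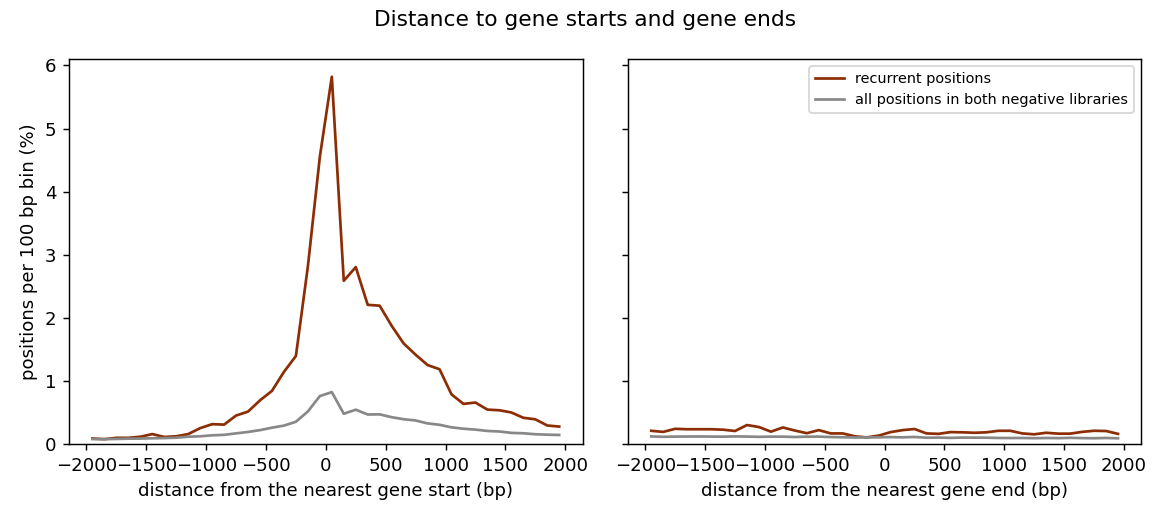
Share of positions (in %) per bin of 100 bp against the distance (in bp) to the nearest gene start, left, and gene end, right, for recurrent positions and all positions listed in both Cd73 negative libraries. Negative distances lie before the start or the end in the direction of the gene. Recurrent positions peak at 5.82% in the bin after the start and show no peak of like height at the end.

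Along the genome the positions followed gene density. There were 11.9 recurrent positions per Mb in all, with 21.2 on chromosome 11 (2515 positions), 17.6 on chromosome 19 and 14.7 on chromosome 7 at the upper end and 8.40 on chromosome 3 and 8.63 on chromosome 14 at the lower end. Across the 19 chromosomes, their number per Mb had a Spearman correlation of 0.907 and a Pearson correlation of 0.875 with protein-coding genes per Mb. Chromosomes share libraries, length and base composition, and no test was made. Per 1000 positions listed in both Cd73 negative libraries, the range was narrower, with 21.8 on chromosome 11 and 12.3 on chromosome 3.

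Most positions stood alone at short range. The median distance to the nearest other recurrent position was 865 bp. Another was within 1 bp of 584 (2.04%), within 10 bp of 1280 (4.47%), within 100 bp of 6639 (23.2%), within 1000 bp of 14738 (51.5%) and within 10 kb of 19567 (68.4%). Chaining positions less than or equal to 100 bp apart gave 24839 groups, of which 21985 were a lone position, 2236 a pair, 449 of 3, 111 of 4 and 58 of 5 or more.

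Pairs of positions favoured a few short distances. Between 50 and 100 bp there were 36.1 pairs of recurrent positions per bp of distance. At 1 bp there were 306 pairs, 8.48 times that level, at 7 bp 18 pairs, 0.499 times, and at 10 bp 136 pairs, 3.77 times. From 20 to 40 bp the mean was 1.66 times and from 350 to 400 bp 0.472 times. The 238472 positions with a lower count of 2 to 4 showed the same distances with less contrast, at 4.68 times for 1 bp, 0.553 times for 7 bp and 2.60 times for 10 bp. Without the groups of 5 or more, the remaining 28248 recurrent positions gave 8.26 times for 1 bp, 0.270 times for 7 bp and 3.68 times for 10 bp. As background, about this last distance the DNA helix completes a turn.

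**Figure D5:**
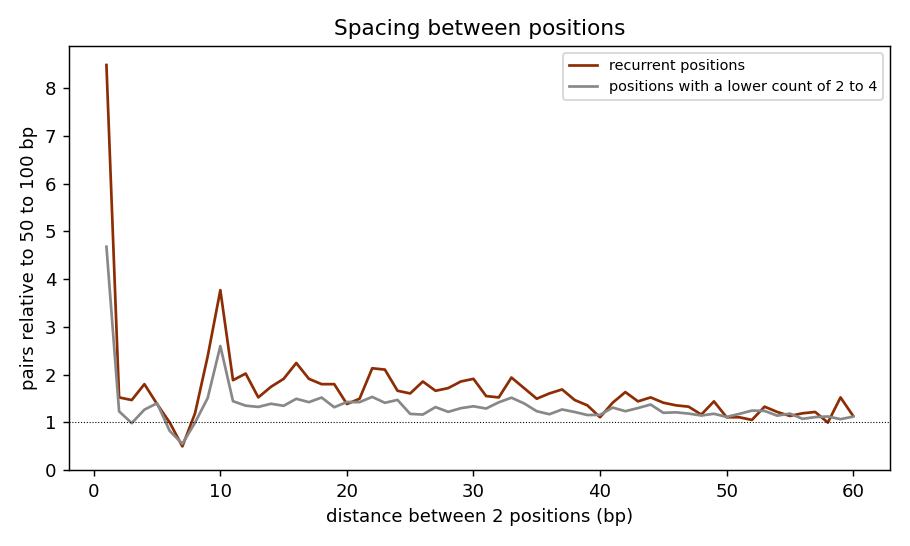
Number of pairs of positions at each distance (in bp), relative to the mean at 50 to 100 bp, for recurrent positions and for positions with a lower count of 2 to 4. Recurrent positions reach 8.48 at 1 bp, 0.499 at 7 bp and 3.77 at 10 bp, and the positions of lower count peak and dip at the same distances.

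The group with most members held 27 recurrent positions at chr9:35305216-35305463, in neither a gene nor a border. It had 143 and 145 EPM in Cd73 high, 60.5 and 80.4 EPM in Cd73 mid and 44.5 and 49.5 EPM in Cd73 negative libraries. The second, of 22 positions at chr11:109011729-109012044, also in neither, had 24.3 and 33.0 EPM in Cd73 high, 30.7 and 33.3 EPM in Cd73 mid and 32.5 and 35.5 EPM in Cd73 negative libraries. The group on chromosome 9 was higher in both Cd73 high libraries than in the other 4, and the group on chromosome 11 overlapped between fractions. The third, of 16 positions at chr11:3193036-3193510, lay in the body of Sfi1, whose product binds centrins, and had 27.6 and 25.1 EPM in Cd73 high, 28.0 and 38.8 EPM in Cd73 mid and 27.4 and 36.7 EPM in Cd73 negative libraries.

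The fourth group, of 10 positions at chr5:146260985-146261054, lay in the body of Cdk8, a kinase of the Mediator complex. It had 20.4 and 17.3 EPM in Cd73 high, 14.1 and 23.4 EPM in Cd73 mid and 19.2 and 17.7 EPM in Cd73 negative libraries. The fifth, of 9 positions at chr2:181917653-181917751 in neither, had 8.54 and 11 EPM in Cd73 high, 10.9 and 15.9 EPM in Cd73 mid and 15.6 and 14.2 EPM in Cd73 negative libraries. Whether these groups are repeats that the genome build holds in too few copies was not tested. In all, 376 of the 28624 positions lay in groups of 5 or more.

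Position by position, Cd73 high was compared with Cd73 mid by edgeR's quasi-likelihood test over all 5174 positions with at least 10 break ends summed over the 4 libraries, members or not. Of these, 12 positions (0.232%) passed a Benjamini-Hochberg adjusted p of 0.05, 11 higher in Cd73 high (0.213%) and 1 lower (0.0193%). Of the 28624 recurrent positions, 4118 had counts enough to be tested, and 4 passed, all higher in Cd73 high. The log2 difference was negative, so lower in Cd73 high, at 2960 of the 4118, beside 3752 of all 5174. Its median was -0.575 over the 4118 and -0.622 over all 5174. Without Cd73 mid M2 both medians were -0.216. Over these 5174 positions, no recurrent position was called lower by edgeR or by DESeq2. Cd73 high libraries are the shallowest, so near the sum of 10 a fall in them could hardly pass. The direction of the calls therefore does not show that falls were absent. An unadjusted p under 0.05 by edgeR, in either direction, was found at 151 of the 4118 recurrent positions, beside 241 of all 5174. Because Cd73 mid libraries are deeper, passing the sum of 10 depended mostly on them, and positions with lower sums were not tested. This filter favours positions high in Cd73 mid, so the tally of signs and the medians do not measure a difference between fractions. In simulated counts of this size, 0% of changes of 2-fold, 8% of 4-fold and 44% of 8-fold were recovered. Rises and falls were pooled in these shares, so recovery of falls alone is not given. The simulation used a dispersion of 0.05, below the common dispersion of 0.271 in the fit of the data. Recovery in the data may therefore be lower still, and moderate differences were not detectable at this depth.

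Of the 4 called positions, 3 lay in the group on chromosome 9. Position chr9:35305227 had 27 and 31 break ends in Cd73 high, against 14 and 12 in Cd73 mid and 9 and 7 in Cd73 negative libraries. That is 21.0 ± 4.68 EPM in Cd73 high and 2.63 ± 0.436 EPM in Cd73 mid (SD, n = 2 each), a log2 difference of 2.97 with SE 0.48 (edgeR, adjusted p = 4.23e-06). Both Cd73 high counts exceeded every other count, although these libraries are the shallowest. Position chr9:35305221 had 21 and 15 in Cd73 high, 7 and 9 in Cd73 mid and 7 and 5 in Cd73 negative libraries, a log2 difference of 2.95 with SE 0.60 (edgeR, adjusted p = 0.000755). Position chr9:35305216 had 26 and 17 in Cd73 high, 13 and 19 in Cd73 mid and 21 and 16 in Cd73 negative libraries, a log2 difference of 2.22 with SE 0.51 (edgeR, adjusted p = 0.00887).

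The remaining called position, chr4:70378181, lay in the body of Cdk5rap2, which encodes a centrosome protein. It had 33 and 31 break ends in Cd73 high, against 21 and 15 in Cd73 mid and 13 and 6 in Cd73 negative libraries, or 23.0 ± 1.90 EPM in Cd73 high and 3.66 ± 1.07 EPM in Cd73 mid (SD, n = 2 each). The log2 difference was 2.63 with SE 0.45 (edgeR, adjusted p = 7.82e-06). None of the 4 calls held without Cd73 high M2, and without Cd73 high M1 only the call at chr9:35305227 did (edgeR, adjusted p = 0.018). The call at chr9:35305216 was also lost with the replicate number as a block (edgeR, adjusted p = 0.308), and all 4 were lost when every position with a sum of at least 2 was tested (edgeR, adjusted p = 0.540).

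These positions were also among the 10 with the highest mean EPM over the Cd73 high and mid libraries, of which 7 lay in the chromosome 9 group. Counts and levels gave different orders there, since the libraries differ in depth. At chr9:35305404 the counts were 23 and 18 in Cd73 high, 45 and 70 in Cd73 mid and 88 and 98 in Cd73 negative libraries, and the levels 15.1 and 14.1 EPM in Cd73 high, 9.46 and 13.6 EPM in Cd73 mid and 6.75 and 7.79 EPM in Cd73 negative libraries. At chr9:35305428 the counts were 11 and 5 in Cd73 high, 25 and 52 in Cd73 mid and 90 and 89 in Cd73 negative libraries, and the levels 7.22 and 3.93 EPM in Cd73 high, 5.25 and 10.1 EPM in Cd73 mid and 6.90 and 7.07 EPM in Cd73 negative libraries. By level the first was highest in Cd73 high, and the fractions overlapped at the second. Position chr9:35305431 had 14 and 13 in Cd73 high, 25 and 39 in Cd73 mid and 39 and 40 in Cd73 negative libraries, or 9.19 and 10.2 EPM in Cd73 high, 5.25 and 7.56 EPM in Cd73 mid and 2.99 and 3.18 EPM in Cd73 negative libraries. Position chr9:35305426 had 14 and 6 in Cd73 high, 31 and 30 in Cd73 mid and 55 and 68 in Cd73 negative libraries, or 9.19 and 4.71 EPM in Cd73 high, 6.52 and 5.81 EPM in Cd73 mid and 4.22 and 5.40 EPM in Cd73 negative libraries. Outside the group, chr5:146260993 in the body of Cdk8 had 12 and 12 in Cd73 high, 21 and 42 in Cd73 mid and 39 and 36 in Cd73 negative libraries, or 7.88 and 9.43 EPM in Cd73 high, 4.41 and 8.14 EPM in Cd73 mid and 2.99 and 2.86 EPM in Cd73 negative libraries. Far from any gene, chr1:48881545 had 11 and 8 in Cd73 high, 18 and 29 in Cd73 mid and 38 and 49 in Cd73 negative libraries, or 7.22 and 6.29 EPM in Cd73 high, 3.78 and 5.62 EPM in Cd73 mid and 2.91 and 3.89 EPM in Cd73 negative libraries.

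Of 20661 protein-coding genes, 10876 (52.6%) had at least 1 recurrent position in the body or at a border, 4092 had a single one and 75 had 10 or more. Genes with a position had a median length of 25.9 kb, against 10.3 kb for genes without. A position within reach of more than 1 gene was counted for each, which touched 2843 positions (9.93%). Sfi1, where the mapping of reads to repeats was likewise not tested, held most, with 95 positions and 121 and 108 break ends in Cd73 high, 407 and 584 in Cd73 mid and 1383 and 1521 in Cd73 negative libraries. Gse1, which encodes a coiled-coil protein of a histone demethylase complex, held 49 positions, with 35 and 15 break ends in Cd73 high, 71 and 119 in Cd73 mid and 404 and 461 in Cd73 negative libraries. Sfi1 was far denser, at 12.9 positions per 10 kb, than Gse1, at 1.38, and than all genes together, at 0.257.

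Hjurp, the chaperone of the centromeric histone, and Plec, the cytoskeletal linker plectin, held 27 positions each. Hjurp had 33 and 21 break ends in Cd73 high, 106 and 110 in Cd73 mid and 353 and 401 in Cd73 negative libraries. Plec had 14 and 15 in Cd73 high, 50 and 72 in Cd73 mid and 246 and 265 in Cd73 negative libraries. Mroh2a, with 20 positions, overlaps the gene Hjurp. The transcriptional coregulator Zmiz1 held 19 and the zinc finger factor Casz1 17. The overlapping genes Gm37013, Gm38666 and Gm38667 on chromosome 18 held 19, 18 and 18, and Gm38666 and Gm38667 had identical counts in all 6 libraries.

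Gene groups differed in how many members held a recurrent position, and their lengths differed as well. Of 32 immediate early genes, the first transcripts made after a stimulus, 29 held at least 1 (90.6%, beside 52.6% of all genes), with 86 positions at 2.76 per 10 kb. Fosb, a subunit of the AP-1 factor, held 6, with 5 and 3 break ends in Cd73 high, 23 and 40 in Cd73 mid and 107 and 128 in Cd73 negative libraries. Fosl1, of the same factor, and the nuclear protein gene Ier2 held 6 each. Of 87 ribosomal protein genes, 59 held at least 1 (67.8%), with 120 positions at 2.40 per 10 kb. Rpl13a, of the large ribosomal subunit, held 7, Rps14, of the small subunit, 5 and Rpl18 4.

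Of 25 proliferation genes, 17 held a position, at 0.892 per 10 kb, led by the helicase subunit gene Mcm3 and the mitotic kinase gene Aurka with 5 each and the nucleotide synthesis gene Rrm2 with 4. Of 24 enterocyte identity genes, 16 did, at 0.580 per 10 kb, led by Ezr, the microvillus protein ezrin, with 7 and by the factor Gata4 and the adhesion gene Cdh1 with 5 each. Of 30 nutrient absorption genes, 16 did (53.3%), at 0.285 per 10 kb, with 6 in the glucose transporter gene Slc5a1 and 4 each in the peptidase gene Dpp4 and the lipid transfer gene Mttp. Absorption genes were thus close to all genes in both measures. Of 16 crypt stem cell genes, 14 did, at 0.293 per 10 kb, with 7 in the receptor gene Ephb2, 6 in the Wnt target Axin2 and 4 in the stem cell factor gene Ascl2.

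The lists of common fragile site and neuronal genes, which are long, held positions at low density. Of 26 common fragile site genes, of median length 1397 kb, 20 held a position, at 0.0207 per 10 kb, with 15 in Auts2, 8 in Ptprd and 8 in Wwox. Of 21 neuronal genes 11 did, at 0.0251 per 10 kb, with 6 in the splicing factor gene Rbfox3, 4 in the glutamate receptor gene Grin1 and 2 in Grin2b. Of 67 genes caught by histone symbols, 26 did, at 1.66 per 10 kb, with 5 in H1f0, a linker histone that does not depend on replication, 3 in H2ac13 and 2 in H1f4. Of 1104 olfactory receptor genes, 6 did (0.543%), with 1 position each, among them Olfr1390, Olfr1465 and Olfr1443.

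Genes of other cell types that such a sort could hold were also counted, beside the 52.6% of all genes that held a position. The positions of these genes listed in both Cd73 negative libraries numbered 168 for goblet, 21 for Paneth and 138 for enteroendocrine cells. They numbered 420 for tuft cells, 171 for lymphocytes and 376 for stromal and endothelial cells, which limits how many could be recurrent. For goblet cells 1 of 7 genes held a position (Agr2), for Paneth cells 0 of 8, for enteroendocrine cells 1 of 8 (Chga), for tuft cells 2 of 9 (Vav1 and Avil), for lymphocytes 1 of 13 (Cd4) and for stromal and endothelial cells 5 of 10, with 4 positions in Pdgfra, 2 in Acta2 and 1 in Col1a1. The 2 positions of Acta2 had no break end in the 4 Cd73 high and mid libraries, against 14 and 12 in Cd73 negative libraries. Those of Pdgfra had 2 and 0 in Cd73 high, 4 and 8 in Cd73 mid and 33 and 29 in Cd73 negative libraries. That of Col1a1 had 0 and 0 in Cd73 high, 3 and 2 in Cd73 mid and 5 and 13 in Cd73 negative libraries. The rule required at least 5 per position in each Cd73 negative library, and these libraries are the deepest. None of the lists was tested, and length, gene starts and the choice by count bear on all of them.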

How the data were processed

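The authors deposited 1 table per library giving the count of break ends listed for each single base, raw and without strand. Reads were aligned with BWA to GRCm38, per the submitters' processing notes; the sources used here do not give the BWA version, the mapping quality limit or how duplicates were handled. Columns of 6 enterocyte libraries were read, and 0 columns were left unassigned.

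From the counts, EPM, place, spacing and composition were computed with Python 3.11.15 (numpy 2.4.6, pandas 2.3.3). Genes and promoter windows are from RefSeq GRCm38.p6. Windows on chromosome 18 were not used. Positions were tested with edgeR 4.0.16 in R 4.3.3 (glmQLFit and glmQLFTest), with library sizes scaled by TMM factors from bins of 100 kb. The step was tested on simulated counts. Single values per library were compared by exact permutation. Named positions are the 10 members of highest mean EPM in Cd73 high and mid libraries, called members whose fractions do not overlap and the 5 groups with most members. Named genes are the 10 with most members and up to 3 per list. The positions, lists, tests and names were chosen with earlier results of these data known, and the purine pattern and printed sequences after values were seen.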

Additional observations from a re-analysis of the deposited data

Results flagged for a closer look

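The same limits of 5 to 100 break ends in both Cd73 negative libraries were met by 163 positions on chromosome X, which the comparisons leave out. They had 0.479 and 0.622 EPM per position in Cd73 high and 0.530 and 0.647 EPM in Cd73 mid libraries, against 0.358 and 0.338 EPM in Cd73 high and 0.383 and 0.533 EPM in Cd73 mid libraries for the recurrent positions. A further 19 positions had over 100 break ends in a Cd73 negative library and were left out by the upper limit. Each of the 19 was listed in all 4 Cd73 high and mid libraries, with 10 and 8.89 EPM per position in Cd73 high and 9.24 and 12.8 EPM in Cd73 mid libraries. The chromosome X positions were singled out because they carry signal that no comparison uses. The 19 were singled out because they fall outside the recurrent set. With no upper limit of 100, the difference in level between Cd73 high and mid was -3173 EPM, and the fit of single positions set no upper limit.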

How the results depend on the processing

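The number of recurrent positions was 48141 with at least 4 break ends in both Cd73 negative libraries, 18857 with at least 6 and 5778 with at least 10. Borders of 500 bp and 2000 bp placed 33.7% and 56.1% of positions at a border, 46.3% and 27.8% in a body and 20.1% and 16.1% in neither. Lone positions, an alternative chosen after seeing the data, were placed at 40.9%, 39.0% and 20.04%. Of the other results, the 4 single values per library kept their negative direction under all 37 alternatives run; no p can be below 0.333 with 2 against 2 libraries, and the fits without a library have none. Leaving out each Cd73 high or mid library in turn gave a difference in equal-depth detection of -11.7 to -3.12 percentage points, in level of -5291 to -997 EPM, in border share of -2.17 to -0.476 and in sharpness of -3.75 to -2.09. Without Cd73 mid M1 or without Cd73 mid M2 the first 3 of these moved by over 1.5 times, and the border share did so without either Cd73 high library too. The full pattern was at 16.0% of positions with at least 10 break ends and at 12.7% of lone positions.

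The 4 called recurrent positions became 0 with a sum of at least 2 (0 calls of 1083652 positions tested by edgeR, 270 at an unadjusted p under 0.05) and 0 in windows of 1 kb (0 of 276733 windows by edgeR, 14590 at an unadjusted p under 0.05). They were 5 with a sum of at least 20, of which 1 was lower in Cd73 high, and ranged from 0 to 4 when a library was left out. Over all positions the 12 calls became 4 with DESeq2, 9 with a sum of at least 5, 7 with a sum of at least 20, 9 with all 6 libraries in the fit, 5 without Cd73 high M1, 8 without Cd73 high M2, 5 without Cd73 mid M1 and 5 without Cd73 mid M2. The log2 differences of the 4 called positions stayed positive in every setting, from 2.01 to 3.18 when a library was left out.

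Replicate numbers were not shown to pair the samples: the differences of M1 and M2 in Cd73 high and in Cd73 mid had a correlation of 0.000460 over 24777 bins. A fit with the replicate block called 3 recurrent positions of 5 positions in all. Cd73 high counts of 0 or 1 at most positions limit what a single position can show.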

Other observations

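In promoter windows, positions counted once in a Cd73 high library carried the full pattern at 3.77% and 4.13%, against 2.97% and 2.86% of positions counted once in a Cd73 mid library. Positions counted 3 or more times carried it at 10.5% and 15% in Cd73 high and at 9.80% and 8.80% in Cd73 mid libraries. The libraries differ in depth, so a count of 1 is not the same level in both, and the difference was not tested.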
